A study of Homo sapiens with 6 samples.

Results

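The enzymes that build, recycle and trim the purine and pyrimidine nucleotides, together with the folate enzymes that supply their one-carbon units, were examined as a set of 41 genes in A549 cells, a line derived from a human lung adenocarcinoma. The genes were chosen by their function, with earlier results of these data known. Each was read from Affymetrix HG-U133 Plus 2.0 arrays through the brightest probe set that the platform annotation assigns to that gene symbol alone, a probe set being several short oligonucleotides designed against the same transcript. On this rule 39 of the 41 genes were measured, and 38 lay above the filter on dim probe sets (a signal of 71.7, the median of all), among 12406 genes tested in all. ADSS2 had no probe set with a single symbol, and UCK2 was covered only by probe sets that carry several. SHMT1 lay under the filter. The comparison was between groups of 3 arrays: NME2-depleted cells, which had been transfected with a small interfering RNA duplex directed at NME2 (also called NM23 H2), and control cells, which had received control duplexes. The silencing was transient, a single cell line was used, and only messenger RNA was measured. The arrays of a group are called biological replicates in the series text, which does not describe separate cultures. The p-values thus rest only on how far the 3 arrays of a group lie from each other. The limma fit takes this spread from the probe set itself and in part from the other probe sets tested.

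Purine nucleotides are assembled step by step on phosphoribosyl pyrophosphate (PRPP) until inosine monophosphate (IMP) is reached, and IMP is then turned into AMP or GMP. Pyrimidines are made as a free ring that is joined to PRPP, which gives UMP and from it CTP, and ribonucleotide reductase turns the diphosphates of both families into the precursors of DNA. NME2 is itself a nucleoside diphosphate kinase (NDP kinase): with its relatives it carries out the last phosphorylation, which makes the triphosphates that these pathways lead to, and it also binds DNA.

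The silenced transcript was checked first. The NME2 probe set, which the annotation also assigns to the read-through transcript NME1-NME2, had signals of 1920.4, 3675.9 and 3215.7 in NME2-depleted cells, against 17861.6, 19388.9 and 21044.5 in control cells. The groups were far apart. In log2 signal this was a difference of -2.78 (SE 0.19, limma adjusted p = 0.00032), or 6.85-fold lower. The 6 arrays had median signals of 75.7 to 85.2, and no pair of arrays was a duplicate. The ratio of 3′ to 5′ signal of ACTB, a sign of RNA quality, averaged 1.355 in NME2-depleted and 1.246 in control arrays and did not overlap between the groups. The same ratio of GAPDH averaged 1.019 and 0.995, and there the groups overlapped. The part of RNA quality in the differences given here was not tested. All 6 epithelial and all 5 A549-typical markers lay above the filter, whereas 2 of 5 measured leukocyte, 3 of 6 fibroblast and 1 of 4 endothelial markers did. Summed epithelial signals were 74012 to 81010 in NME2-depleted and 75537 to 82809 in control arrays, and A549-typical ones 115495 to 140356 and 120542 to 144146. Leukocyte sums were 330 to 502 and 380 to 550, fibroblast ones 815 to 1001 and 635 to 821, and endothelial ones 278 to 356 and 201 to 304. These sums hide single markers. EPCAM (log2 difference 0.71) and CDH1 (0.21) were higher on every NME2-depleted array, and KRT8 (-0.24) and ALDH3A1 (-0.24) were lower. The other epithelial and A549-typical markers overlapped, and none had a limma adjusted p under 0.05. Control replicate 1 stood apart in the interferon-induced nucleotide enzymes CMPK2 and SAMHD1, described with the neighbouring pathways, and values without this array are given for GART, IMPDH2, RRM1, RRM2, TYMS, NT5C2 and NT5C3A.

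Differences of the nucleotide and folate enzymes between NME2-depleted and control cells were small. In such bulk RNA fewer cells with a transcript and less of it per cell cannot be told apart. None of the 38 tested genes passed the threshold of an adjusted p of 0.05 (limma, Benjamini-Hochberg over all 27307 probe sets tested), where 0.540% of all genes did, 0.145% higher and 0.395% lower. At an unadjusted p under 0.05 there were 6 genes, with UPP1 higher and PNP, RRM1, CTPS1, AK3 and RRM2 lower, against 15.0% of all genes (7.25% higher and 7.75% lower). In 4 genes the arrays of the groups did not overlap, UPP1 and IMPDH2 being higher and PNP and AK3 lower, whereas 20.6% of all genes were separated in this way (10.4% higher and 10.1% lower). The mean was lower in NME2-depleted cells in 25 of the 38 genes, against 49.8% of all genes, and the median log2 difference was -0.04, against 0.00 for all genes. The count at an unadjusted p under 0.05 leaned on single arrays: it was 3 without NME2-depleted replicate 2, 2 without NME2-depleted replicate 3 and 3 without control replicate 1, and UPP1 and PNP were in it whichever array was left out. Separated genes numbered 4 without control replicate 1 and 8 to 14 when any other array was left out. With an array left out, fewer arrays have to be separated, for any gene. The shares of all genes were not counted with arrays left out, so these counts have no background to be read against.

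Differences ran from -0.48 for RRM2 to 0.38 for UPP1, and 24 of the 38 were smaller than 0.1 on the log2 scale in either direction. The 95% interval of the difference, not adjusted for the number of genes, reached between 0.14 (ATIC) and 0.47 (RRM2) to either side of the estimate, with a median reach of 0.18. It lay within 1.2-fold in either direction in 18 genes, within 1.5-fold in 37 and within 2-fold in all 38. In the plot of differences by pathway the 32 intervals that hold 0 outnumber the 6 that do not.

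**Figure D1:**
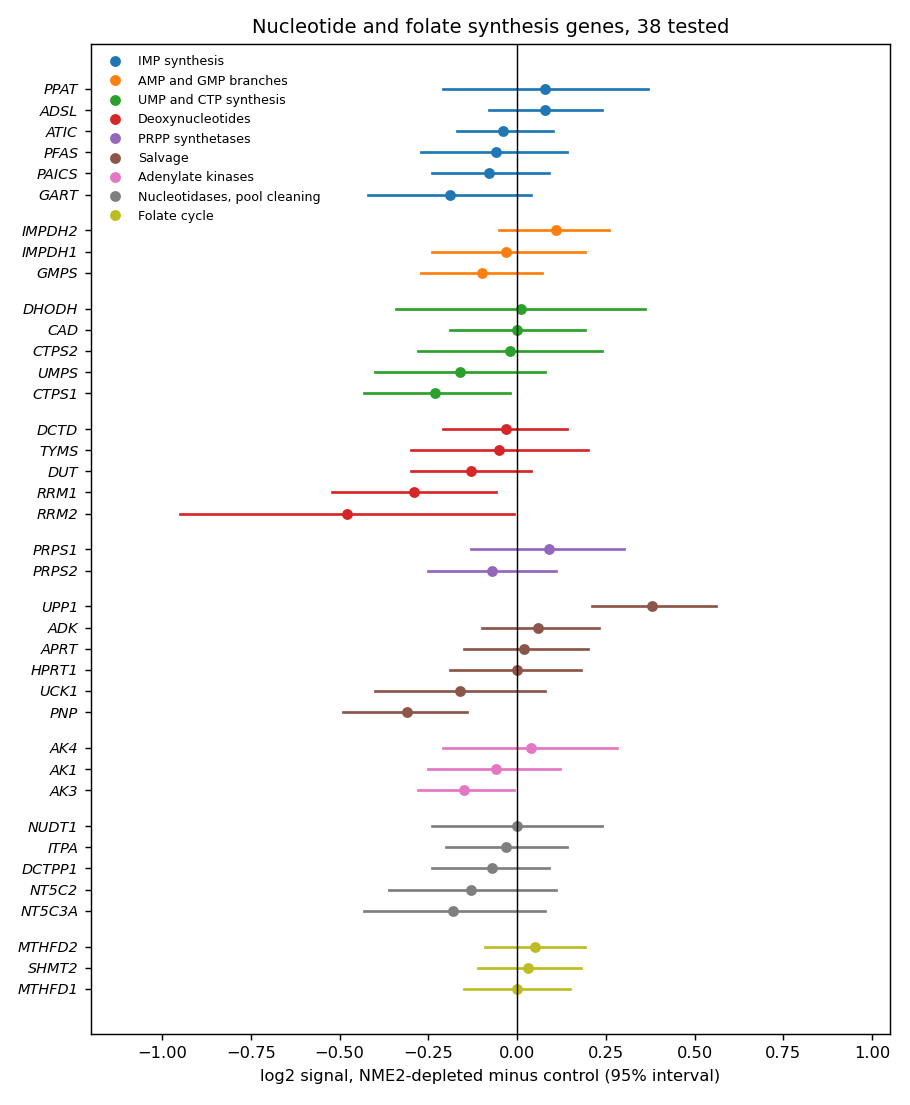
Differences of the 38 tested genes in log2 signal, NME2-depleted minus control (horizontal axis), grouped and coloured by role, with points for the limma estimate and lines for the unadjusted 95% interval. The intervals of UPP1 (to the right of 0) and of PNP, RRM1, CTPS1, AK3 and RRM2 (to the left) leave out 0, and none of these genes passed the adjusted threshold.

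The pathways start from PRPP, which the PRPP synthetases make from a ribose phosphate. PRPS1 had 2035.1, 2543.7 and 2615.9 in NME2-depleted cells, against 2221.0, 2200.9 and 2307.3 in control cells. PRPS2, its isoenzyme, had 1305.9, 1355.5 and 1298.1, against 1327.0, 1348.5 and 1482.7 in control cells. Both pairs of groups overlapped, with log2 differences of 0.09 (SE 0.10, limma adjusted p = 0.757) for PRPS1 and -0.07 (SE 0.08, adjusted p = 0.781) for PRPS2.

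Of the 6 enzymes of IMP synthesis, 4 averaged lower in NME2-depleted cells and none had an unadjusted p under 0.05. Their median log2 difference was -0.05. PPAT, the amidotransferase that commits PRPP to the purine pathway, had signals of 846.7, 909.3 and 654.8 in NME2-depleted cells, against 806.7, 691.4 and 767.4 in control cells. The groups overlapped, and the difference was 0.08 (SE 0.13, adjusted p = 0.848). Its other 2 tested probe sets gave 0.12 and -0.61 (limma adjusted p = 0.676 and 0.464). The last of these was dim, with 54.6, 138.2 and 89.5 in NME2-depleted cells, against 138.4, 138.6 and 124.2 in control cells. GART, a protein that carries out several of the steps, had 1813.3, 2030.2 and 1644.0 in NME2-depleted cells, against 2303.1, 2086.8 and 1867.0 in control cells. All 3 NME2-depleted signals of GART were below the 2 higher control signals. The difference was -0.19 (SE 0.10, adjusted p = 0.474), or -0.12 without control replicate 1. The other 6 tested probe sets of GART ran from -0.17 to 0.53, and 3 of them had the same sign as the brightest. The mean of its probe sets gave 0.10. The differences of the remaining enzymes were -0.06 for PFAS, -0.08 for PAICS, 0.08 for ADSL and -0.04 for ATIC, the enzyme of the closing steps, and their adjusted p-values lay between 0.713 and 0.849. The other probe set of ADSL gave -0.10, with every NME2-depleted array below every control array.

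PPAT and PAICS lie head to head on chromosome 4 and are transcribed in opposite directions, so that the stretch between their start sites serves as the promoter of both. It is shown because it joins the committing enzyme to a later step of the same pathway. Neither gene passed the threshold (0.08 for PPAT and -0.08 for PAICS). The sign of PPAT was not settled, since it was -0.02 without NME2-depleted replicate 2 and a dim probe set gave -0.61. The 136 bases between the RefSeq starts (GRCh38.p14, plus strand) held none of the motifs searched here, and the E-box counted for PPAT further on lies past the start of PAICS.
PPAT-PAICS chr4:56435616-56435751 (+): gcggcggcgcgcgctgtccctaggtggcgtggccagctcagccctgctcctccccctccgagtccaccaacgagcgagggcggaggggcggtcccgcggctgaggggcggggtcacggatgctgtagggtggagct

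From IMP the pathway branches to GMP and AMP. IMPDH2, an IMP dehydrogenase that opens the GMP branch, had signals of 5207.7, 5453.3 and 5268.5 in NME2-depleted cells, against 4615.6, 5118.3 and 5091.0 in control cells. Every NME2-depleted array lay above every control array, but the distance was small, with a log2 difference of 0.11 (SE 0.07, 95% interval -0.05 to 0.26, limma adjusted p = 0.572) that was 0.06 without control replicate 1. Its isoenzyme IMPDH1 had 773.3, 827.3 and 861.9 in NME2-depleted cells, against 793.9, 832.3 and 887.4 in control cells. Those groups overlapped over nearly their whole range, and the difference was -0.03 (SE 0.10, adjusted p = 0.932). GMPS, which completes GMP, differed by -0.10 (SE 0.08, adjusted p = 0.623), but its other 2 tested probe sets gave 0.26 and 0.16. On the AMP side ADSS2 was not measured, and ADSL, which acts in this branch too, is given above with IMP synthesis.

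Pyrimidine synthesis begins with CAD, a single protein with the opening activities of the pathway, whose signals were 2633.0, 2706.1 and 2582.9 in NME2-depleted cells, against 2444.7, 2989.8 and 2518.7 in control cells. DHODH, the mitochondrial dehydrogenase that follows, had 223.8, 279.9 and 267.4 in NME2-depleted cells, against 250.6, 265.5 and 247.6 in control cells. The groups overlapped in both genes. The log2 difference of CAD was 0.00 (95% interval -0.19 to 0.19), and that of DHODH was 0.01, with a wider interval of -0.34 to 0.36. UMPS, which completes UMP, had 1231.1, 928.6 and 1023.8 in NME2-depleted cells, against 1201.3, 1202.4 and 1135.2 in control cells. NME2-depleted replicate 1 of UMPS was the highest of all 6 arrays and the other 2 NME2-depleted arrays were the lowest, and the difference of -0.16 (SE 0.11, adjusted p = 0.584) became -0.27 without that array and -0.07 without NME2-depleted replicate 2.

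The CTP synthetases CTPS1 and CTPS2 make CTP from UTP. CTPS1 had signals of 8461.7, 7393.1 and 6671.5 in NME2-depleted cells, against 9499.6, 8289.0 and 8499.7 in control cells. NME2-depleted replicate 1 was within the control range and the other 2 were below it, which gave a log2 difference of -0.23 (SE 0.09, limma adjusted p = 0.331), or 1.17-fold lower. The difference was -0.32 to -0.15 with single arrays left out. CTPS2 had 606.4, 540.6 and 566.1 in NME2-depleted cells, against 621.9, 603.7 and 516.1 in control cells. Here the groups overlapped widely, and the difference was -0.02 (SE 0.12, adjusted p = 0.963). Whether CTPS1 and CTPS2 differed from each other in this contrast was not tested.

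All 5 genes of deoxynucleotide supply averaged lower in NME2-depleted cells, at a median difference of -0.13, and none passed the adjusted threshold. RRM1, the large subunit of ribonucleotide reductase, had signals of 1884.2, 1691.7 and 1664.4 in NME2-depleted cells, against 2452.8, 2137.4 and 1854.7 in control cells. Only NME2-depleted replicate 1 reached above the lowest control array. The difference was -0.29 (SE 0.11, 95% interval -0.52 to -0.06, limma adjusted p = 0.274), which is 1.22-fold lower. The other probe set of RRM1 gave -0.30 (adjusted p = 0.246), and its 3 NME2-depleted arrays, at 728.5, 766.7 and 745.1, all lay under the control arrays, at 975.8, 826.5 and 958.0.

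RRM2, the small subunit, whose transcript accumulates in S phase, had 1273.1, 931.9 and 871.9 in NME2-depleted cells, against 1988.7, 1384.9 and 1015.0 in control cells. The spread within each group was wide, at 1026 ± 216.4 and 1463 ± 491.5 (SD, n = 3 each), and control replicate 1 was the highest array. The difference was -0.48 (SE 0.21, adjusted p = 0.376), the lowest of the 38 genes. Without control replicate 1 it was -0.23, over all arrays left out in turn -0.71 to -0.23, and in the other probe set -0.16. Without the same array the difference of RRM1 was -0.19.

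The promoters of both subunits are shown because both lay in the lower tail, a choice made after their values were seen. Both carry the CCAAT box, a site that NF-Y binds in many genes of the cell cycle. This box is common, before 34.2% of the scanned genes of the set and 33.0% of all promoters. Its part in the values was not tested. RRM2 held 3 copies and RRM1 held 1 in the 250 bases before the RefSeq start (GRCh38.p14, both genes on the plus strand), with the boxes in capitals.
RRM1 chr11:4094435-4094684 (+): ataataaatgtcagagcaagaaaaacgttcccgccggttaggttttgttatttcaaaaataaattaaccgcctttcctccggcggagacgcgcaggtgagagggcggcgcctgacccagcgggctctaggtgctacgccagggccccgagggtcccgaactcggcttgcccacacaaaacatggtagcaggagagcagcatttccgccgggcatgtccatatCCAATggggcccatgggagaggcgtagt
RRM2 chr2:10122489-10122738 (+): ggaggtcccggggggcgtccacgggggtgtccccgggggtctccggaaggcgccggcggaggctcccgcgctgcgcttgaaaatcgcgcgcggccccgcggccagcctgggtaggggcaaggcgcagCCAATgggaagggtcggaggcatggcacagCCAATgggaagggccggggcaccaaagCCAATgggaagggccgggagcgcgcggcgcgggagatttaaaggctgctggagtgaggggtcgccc

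TYMS, thymidylate synthase, which makes the thymine nucleotide with a folate as methyl donor, had signals of 4416.6, 3393.6 and 3813.8 in NME2-depleted cells, against 4616.4, 3650.5 and 3764.3 in control cells. Replicate 1 was the highest array in both groups, the groups overlapped, and the log2 difference was -0.05 (95% interval -0.30 to 0.20, limma adjusted p = 0.892). Its sign rested on single arrays, since the difference was 0.06 without control replicate 1 and 0.04 without NME2-depleted replicate 2. DUT, the dUTPase that keeps uracil out of DNA, had 4533.2, 4964.5 and 4504.0 in NME2-depleted cells, against 5333.2, 5290.8 and 4714.0 in control cells. Its difference was -0.13 (SE 0.08, adjusted p = 0.511), and its other 2 probe sets gave -0.26 and -0.31. DCTD, the deoxycytidylate deaminase that feeds thymidylate synthesis, differed by -0.03 (adjusted p = 0.895).

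**Figure D2:**
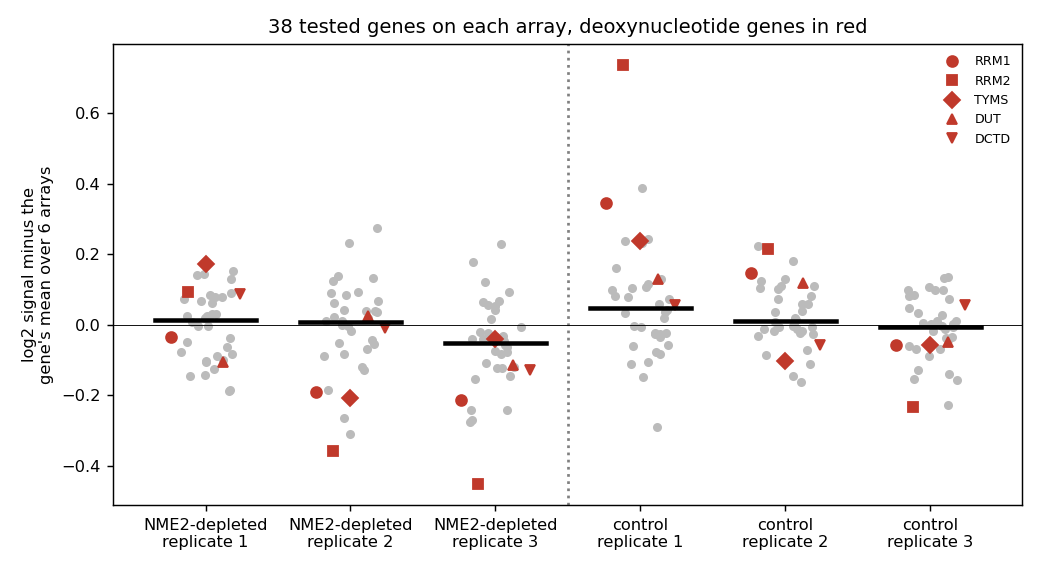
Log2 signal of each of the 38 tested genes on each array minus that gene's mean over the 6 arrays (vertical axis), with 1 point per gene, the 5 deoxynucleotide genes in red and the median of all 38 as a black bar. The bars stay between -0.05 and 0.05 on every array, whereas RRM2 is highest on control replicate 1 and lowest on NME2-depleted replicate 3.

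Spread over the arrays, the deoxynucleotide genes did not separate the groups. Their median deviation from each gene's mean over the 6 arrays was 0.09, -0.19 and -0.13 in NME2-depleted replicates 1 to 3, against 0.24, 0.12 and -0.06 in control replicates 1 to 3. NME2-depleted replicate 1 was thus above control replicate 3. A list of 26 S phase genes, given beside them because RRM1, RRM2, TYMS and DUT are known S phase transcripts, had medians of -0.01, -0.14 and -0.17 in NME2-depleted arrays, against 0.20, 0.12 and -0.03 in control arrays. In that list 21 of 26 genes had a lower mean, the median log2 difference was -0.22, and 1 gene passed the adjusted threshold, GINS2, a subunit of the replicative helicase (-1.25, limma adjusted p = 0.0279). GINS2 missed the threshold with any 1 array left out (adjusted p = 0.0514 to 0.105), and its other probe set gave 0.12. The part of cell cycle position in the values of the deoxynucleotide genes was not tested. Over all 38 genes the median deviations were 0.01, 0.01 and -0.05, against 0.05, 0.01 and -0.01 in control arrays.

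The 2 genes with the lowest p-values were both nucleoside phosphorylases of salvage, and they lay on opposite sides. UPP1, uridine phosphorylase, which splits uridine into uracil and a sugar phosphate, had signals of 3409.9, 3918.3 and 3797.4 in NME2-depleted cells, against 2650.8, 2933.4 and 2942.7 in control cells. All NME2-depleted arrays were above all control arrays. The means were 3709 ± 265.6 and 2842 ± 165.9 (SD, n = 3 each), or 1.30-fold higher in NME2-depleted cells. The log2 difference was 0.38 (SE 0.08, 95% interval 0.21 to 0.56), with an unadjusted p = 0.000576 and a limma adjusted p = 0.0725. PNP, purine nucleoside phosphorylase, which acts on inosine and guanosine, had 2481.0, 2637.5 and 2270.6 in NME2-depleted cells, against 3060.5, 3200.5 and 2902.6 in control cells. Here all NME2-depleted arrays were below all control arrays. The means were 2463 ± 184.1 and 3055 ± 149.0 (SD, n = 3 each), or 1.24-fold lower in NME2-depleted cells. The log2 difference was -0.31 (SE 0.08, 95% interval -0.49 to -0.14), with an unadjusted p = 0.00255 and a limma adjusted p = 0.126. Both genes passed the threshold only under alternatives. UPP1 did so for instance at an adjusted p = 0.0438 with the filter at the 75th percentile, over an adjusted p range of 0.0204 to 0.291. PNP did so with the replicate number as a block (adjusted p = 0.0438), over a range of 0.0438 to 0.348. Whether the numbers pair the samples is not given. With single arrays left out UPP1 kept 0.33 to 0.44 and PNP -0.36 to -0.25. Each gene had 1 probe set, so neither value had a second measurement on the array.

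**Figure D3:**
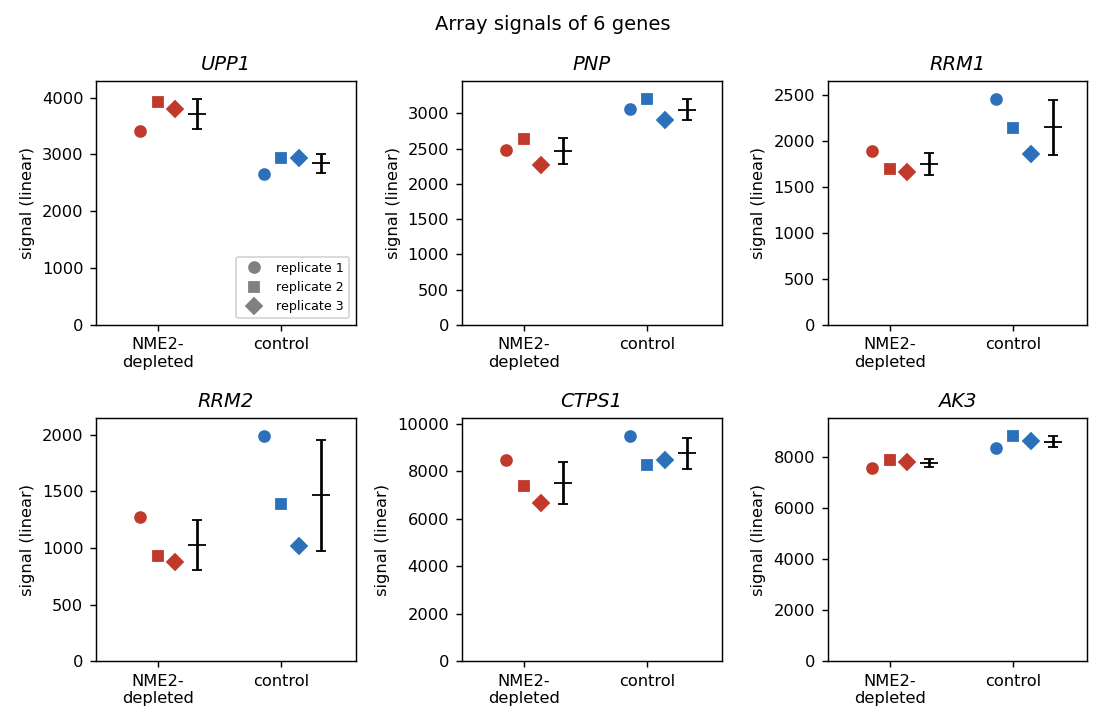
Array signal on a linear scale (vertical axis) of the 6 genes with an unadjusted p under 0.05, with 1 point per array, marker shape for the replicate number, and bars for the mean and SD of 3 arrays in NME2-depleted (red) and control (blue) cells. UPP1, PNP and AK3 separate the groups, whereas RRM1, RRM2 and CTPS1 overlap.

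The regions before the starts of UPP1 and PNP are shown because these genes had the lowest p-values of the set. UPP1 held none of the motifs searched, and PNP held 1 CCAAT box, which lies on the opposite strand and is in capitals (RefSeq, GRCh38.p14, 250 bases before the start, both genes on the plus strand).
UPP1 chr7:48089004-48089253 (+): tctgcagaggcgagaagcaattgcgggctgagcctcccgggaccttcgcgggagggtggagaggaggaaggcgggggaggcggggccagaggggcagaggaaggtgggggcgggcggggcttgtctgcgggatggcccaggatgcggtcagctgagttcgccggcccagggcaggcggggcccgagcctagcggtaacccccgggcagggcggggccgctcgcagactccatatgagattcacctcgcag
PNP chr14:20469156-20469405 (+): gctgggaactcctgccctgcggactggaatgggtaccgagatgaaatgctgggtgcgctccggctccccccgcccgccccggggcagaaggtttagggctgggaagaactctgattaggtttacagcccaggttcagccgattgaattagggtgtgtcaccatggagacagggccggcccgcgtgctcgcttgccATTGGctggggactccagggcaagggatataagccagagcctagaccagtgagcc

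The brightest probe sets of the other salvage enzymes had smaller differences. HPRT1 and APRT, which rebuild nucleotides from free purine bases, differed by 0.00 (95% interval -0.19 to 0.18) and 0.02 (-0.15 to 0.20), and the other probe set of APRT by -0.21 (limma adjusted p = 0.372). ADK, adenosine kinase, differed by 0.06 (SE 0.08, adjusted p = 0.783), whereas its dimmer probe set gave 0.50 (adjusted p = 0.194), larger than the value of UPP1. UCK1, a kinase of uridine and cytidine, had signals of 1290.2, 986.0 and 1215.1 in NME2-depleted cells, against 1292.0, 1331.7 and 1249.5 in control cells. Only NME2-depleted replicate 1 reached the control range, and the difference was -0.16 (SE 0.11, adjusted p = 0.584), or -0.04 without NME2-depleted replicate 2. UCK2, its isoenzyme, was not measured.

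Adenylate kinases, which balance the mono-, di- and triphosphates, included AK3, the mitochondrial matrix form that uses GTP. AK3 had signals of 7595.4, 7883.2 and 7827.1 in NME2-depleted cells, against 8373.1, 8821.9 and 8644.1 in control cells. The groups did not overlap, at 7769 ± 152.6 and 8613 ± 226.0 (SD, n = 3 each), and the log2 difference was -0.15 (SE 0.06, limma adjusted p = 0.348), 1.11-fold lower. Its other probe set was separated in the opposite direction, with 1252.4, 1195.4 and 1286.8 in NME2-depleted cells, against 1132.2, 1052.7 and 1082.5 in control cells (difference 0.19), so the gene had no settled sign. AK1, the cytosolic form, differed by -0.06 (adjusted p = 0.799), and AK4, another mitochondrial form, by 0.04 (adjusted p = 0.918). The other tested probe set of AK1 gave 0.32, and those of AK4 gave 0.27 and -0.11.

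Among the enzymes that remove or cleanse nucleotides, 4 of 5 had a lower mean and the median difference was -0.07. NT5C3A, a nucleotidase that prefers pyrimidine monophosphates, had signals of 1701.0, 1777.0 and 1838.4 in NME2-depleted cells, against 2462.2, 1840.3 and 1769.0 in control cells. Control replicate 1 alone stood above the rest. The difference was -0.18 (SE 0.12, adjusted p = 0.574) with that array and -0.03 without it. NT5C2, a purine nucleotidase, differed by -0.13 (adjusted p = 0.676), and by -0.04 without control replicate 1. ITPA and NUDT1, which break down deaminated and oxidised purine triphosphates, differed by -0.03 and 0.00, and DCTPP1, a pyrophosphatase of dCTP and its analogs, by -0.07.

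The 3 tested folate enzymes had differences between 0.00 and 0.05. MTHFD2, a mitochondrial dehydrogenase and cyclohydrolase that is abundant in growing tumour cells, had signals of 12927.3, 14151.3 and 13418.5 in NME2-depleted cells, against 13059.6, 13165.7 and 12919.2 in control cells. SHMT2, the mitochondrial serine hydroxymethyltransferase, had 7699.5, 7315.5 and 7059.5, against 7094.0, 7181.3 and 7271.7 in control cells. The groups overlapped in both genes. The log2 differences were 0.05 (95% interval -0.09 to 0.19, limma adjusted p = 0.800) for MTHFD2, 0.03 (-0.11 to 0.18, adjusted p = 0.868) for SHMT2 and 0.00 (-0.15 to 0.15, adjusted p = 0.999) for MTHFD1, the cytosolic trifunctional enzyme. SHMT1, the cytosolic isoenzyme of SHMT2, was dim, with 29.5, 54.7 and 40.9 in NME2-depleted cells, against 91.9, 42.9 and 46.6 in control cells, and was not tested.

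Different probe sets of 1 gene often disagreed at this size of difference. The 39 measured genes had 86 probe sets with a single symbol, of which 72 were tested, and 0 of the 72 passed the adjusted threshold (0.396% of all probe sets did, 0.117% higher and 0.278% lower), while 14 had an unadjusted p under 0.05, 5 higher and 9 lower (12.9% of all probe sets did, 6.48% higher and 6.42% lower). In 10 of the 23 genes with several tested probe sets, or 43.5%, at least 1 had another sign than the brightest one, and among all 6103 such genes the probe sets differed in sign in 48.9%. Examples chosen after their values were seen are ADK, whose 2 probe sets shared a sign but not a size, and GART, whose probe sets differed in sign. The dimmer probe set of ADK had 392.6, 426.5 and 403.8 in NME2-depleted cells, against 262.7, 345.5 and 265.8 in control cells (0.50, limma adjusted p = 0.194), whereas the brightest gave 0.06. GART had 7 tested probe sets that ran from -0.19 to 0.53. Both probe sets of RRM1 and all 3 of DUT were on the lower side. Like ADK, these genes are among 13 whose tested probe sets all shared a sign.

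**Figure D4:**
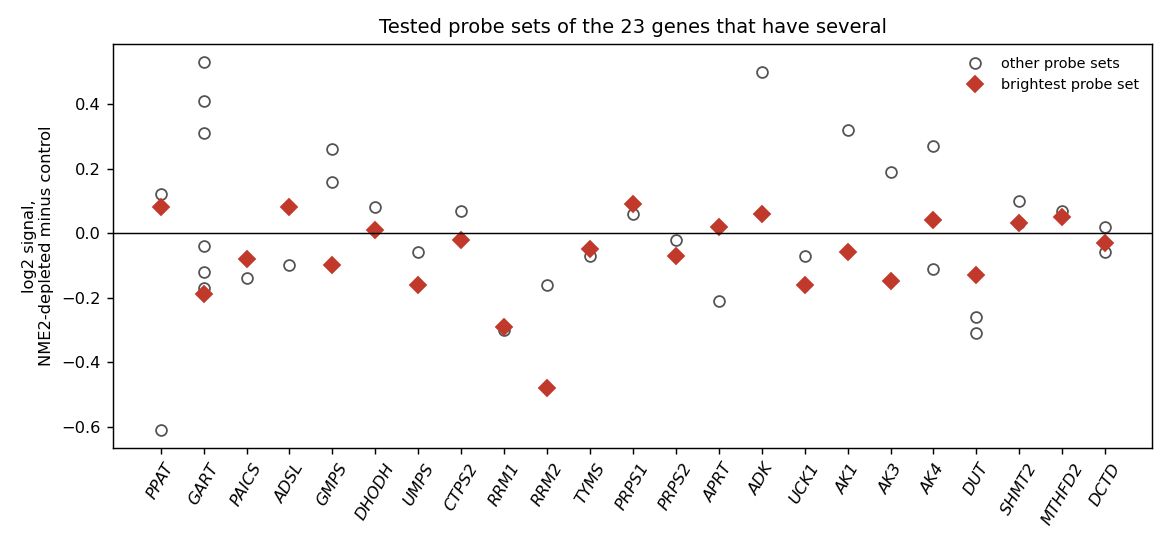
Log2 difference, NME2-depleted minus control (vertical axis), of every tested probe set of the 23 genes that have several, with the brightest as a red diamond and the others as open circles. The probe sets of RRM1 nearly coincide (-0.29 and -0.30), whereas those of GART run from -0.19 to 0.53.

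Other genes of the same pathways were read in the same way. Of 22 other purine genes tested 1 passed the adjusted threshold, 14 had a lower mean and the median log2 difference was -0.10. That gene was DGUOK, the mitochondrial deoxyguanosine kinase, which fell to 4657.3, 5338.9 and 4352.0 in NME2-depleted cells, against 7880.6, 8423.7 and 8261.6 in control cells. The groups were far apart, the difference was -0.78 (SE 0.08, limma adjusted p = 0.00619), 1.72-fold lower, its other probe set was lower too, and it passed with each array left out (adjusted p = 0.0059 to 0.0386). It missed the threshold without the intensity trend (adjusted p = 0.244) and with the methods' t-test (adjusted p = 0.209). SAMHD1, a hydrolase of deoxynucleotide triphosphates that interferon induces, had 818.5, 718.2 and 774.2 in NME2-depleted cells, against 2113.3, 864.3 and 984.6 in control cells (-0.66, adjusted p = 0.312). Control replicate 1 was far above the other control arrays.

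Of 14 other pyrimidine genes none passed, 9 had a lower mean and the median was -0.04. CMPK2, a mitochondrial UMP-CMP kinase that interferon induces, had 59.6, 61.2 and 76.2 in NME2-depleted cells, against 1150.6, 160.2 and 227.7 in control cells, so that control replicate 1 was again the highest (-2.41, limma adjusted p = 0.103). DPYD, which begins pyrimidine breakdown, differed by 0.59 (adjusted p = 0.126). DTYMK, thymidylate kinase, differed by -0.30 (adjusted p = 0.178), and only 1 of its 2 other tested probe sets had the same sign. Folate and serine genes outside the set had a higher mean in 15 of 21 cases, with a median of 0.10, and none passed. ALDH1L2, a mitochondrial folate dehydrogenase, differed by 0.48 (adjusted p = 0.109), but its other 2 probe sets had the opposite sign, and MTHFD2L, a relative of MTHFD2, by -0.45 (adjusted p = 0.157), where 2 of 3 other probe sets had the opposite sign. GGH, which trims the folate tail, differed by 0.24 (adjusted p = 0.162). The relatives of the silenced kinase did not pass either: differences were -0.08 for NME1, 0.13 for NME3, -0.19 for NME4 and -0.04 for NME6 (adjusted p = 0.676, 0.782, 0.296 and 0.901).

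**Figure D5:**
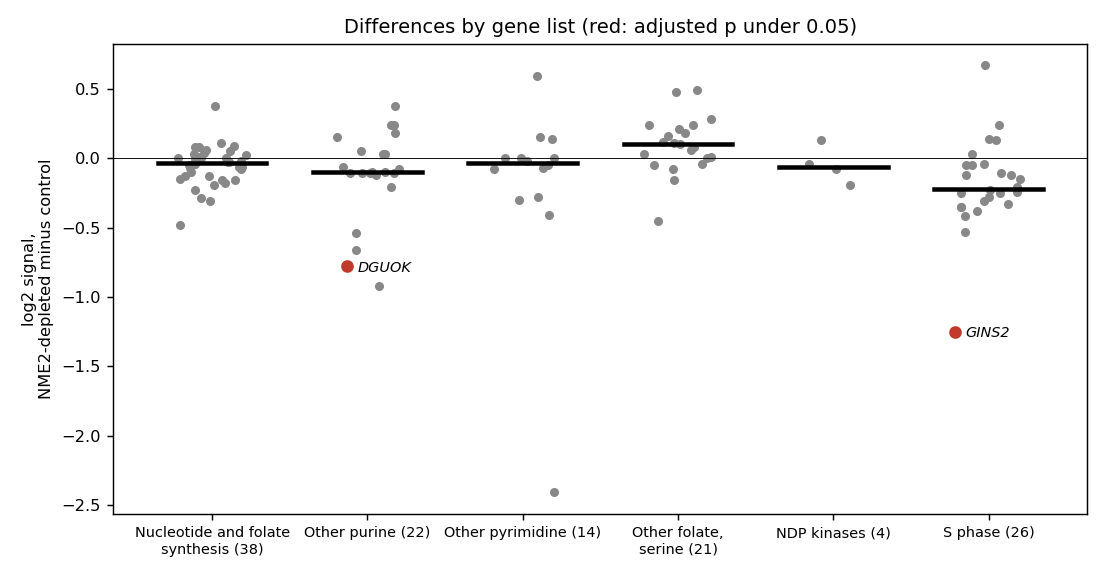
Log2 difference, NME2-depleted minus control (vertical axis), of each tested gene in the nucleotide and folate enzyme set and in 5 neighbouring lists, with 1 point per gene, a black bar for the median and red for an adjusted p under 0.05. The 38 enzymes lie between -0.48 and 0.38 with none in red, whereas DGUOK (-0.78) and GINS2 (-1.25) are the red points of the other lists.

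Promoter motifs that are known from nucleotide synthesis genes were looked up on both strands of the 250 bases before the RefSeq start (GRCh38.p14), where 38 of the 41 genes had an entry and all 27305 promoters served as the comparison. The E-box CACGTG, the site of the MYC family, stood before 7 of 38 genes (18.4%), against 6.49% of all promoters, in PPAT and ATIC of IMP synthesis, DHODH, AK4, MTHFD1, NUDT1 and DCTPP1. By the brightest probe sets the largest difference in either direction among these 7 genes was 0.08. Their other tested probe sets ran from -0.61 (a dim one of PPAT) to 0.27 (AK4). The CCAAT box stood before 13 genes (34.2%), against 33.0% of all promoters, in RRM1, RRM2, PNP, GART, CAD and MTHFD2 among others. Sites spelled TTTCCCGC or TTTGGCGC, which E2F factors bind, stood before PRPS2 and TYMS (5.26%), against 1.96% of all promoters. A match gives letters in this window and not a bound site.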

How the data were processed

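Messenger RNA of 3 NME2-depleted and 3 control A549 samples, grouped by title, was measured by the authors on 1-colour arrays. The deposited table gives the intensity of each probe set as a linear signal, made according to the submitters' processing notes with GCOS 1.1.1. Trimmed means (2% at each end) of 500.06 to 500.07 showed that the authors had scaled each array globally, so a shift of all transcripts would be hidden. Detection calls were not used here. Arrays have no read depth, and their number limits the precision.

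Of 54675 probe sets 62 controls were left out. Signals under 1 (0.327%) were set to 1, and log2 was taken. The 27307 probe sets whose mean log2 signal reached the median of all (signal 71.7) were tested. The platform annotation of 2016 gave 1 symbol for 41091 of 54613 probe sets, several for 1801 and none for 11721. A gene was read from its brightest probe set with 1 symbol. Levels of different probe sets were not compared. Differences are NME2-depleted minus control in limma 3.58.1 (R 4.3.3, lmFit and eBayes with an intensity trend), with two-sided p-values adjusted by Benjamini-Hochberg over all tested probe sets. An exact permutation test of 3 against 3 arrays cannot go below 0.1. The fit was tested on simulated data. The genes and lists were chosen with earlier results of these data known. All 41 genes may be named. Signals per array are given for the 12 of lowest p, for the isoenzyme pairs of IMPDH, CTPS, PRPS, SHMT and RRM, and for PPAT, CAD, TYMS, DHODH and MTHFD2, and from the other lists genes past the threshold or else the 3 of lowest p are named. SAMHD1 was added after its values were seen. Alternatives covered normalization, offset, filters, shared probe sets, variance models, a replicate block, the methods' t-test, the mean of probe sets and single arrays left out.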

Additional observations from a re-analysis of the deposited data

How the results depend on the processing

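No enzyme of the set passed the adjusted threshold under 15 of 17 alternatives. UPP1 passed with the filter at the 75th percentile (1 gene, adjusted p = 0.0438), and UPP1 and PNP passed with the replicate number as a block (2 genes, adjusted p = 0.0204 and 0.0438). Over all alternatives the adjusted p was 0.0204 to 0.291 for UPP1 and 0.0438 to 0.348 for PNP. Whether the numbers pair the samples is not given: deviations of same-numbered arrays correlated at 0.114, 0.08 and 0.07 (others -0.084 to 0.005), so each array correlated best with its own number, as a hint from the data only. The block raised the count of probe sets past the threshold to 464, against 108 without it. That count was 30 without a filter, 192 with the filter at the 75th percentile, 61 without probe sets shared between transcripts, and 0 without the intensity trend and 0 with the methods' t-test (3065 at an unadjusted p under 0.05), in which NME2 kept -2.78 with adjusted p-values of 0.228 and 0.204. It was 127 after median centring, 20 higher and 107 lower, against 32 and 76. The enzymes' median was then -0.08, as all genes shifted by -0.05. Enzymes at an unadjusted p under 0.05 numbered 2 without the trend and 3 with the t-test, and 2 enzymes were separated without shared probe sets, where 26 enzymes instead of 38 had a value. AK3 turned to 0.02 when its probe sets were averaged, and GINS2 to 0.12 without shared probe sets. DGUOK kept its sign under all 17 alternatives and missed the threshold without the trend and with the t-test (adjusted p = 0.244 and 0.209); alternatives for DGUOK and GINS2 were chosen after seeing the data.

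With single arrays left out, 8 to 63 probe sets and 0 enzymes passed the threshold. Enzymes at an unadjusted p under 0.05 numbered 2 to 7, and 4 to 14 enzymes were separated. The enzymes' median was -0.06 to -0.03, and NME2 had -2.96 to -2.50. The shares of all genes at an unadjusted p under 0.05, or separated, were not counted under any alternative. The enzyme counts of these 2 kinds thus have no background there. In all, 18 of 38 enzymes kept their sign under every alternative, and 51 of 633 values had another sign. The causes of these shifts were not tested.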
